A study of Mus musculus with 2 samples.

Results

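Ccl19 Srpx fibroblasts are the heart fibroblasts in which the summed counts of Ccl19, Srpx, Mmp3 and Osr1 outweighed those of 3 other gene sets. A cell counted as a fibroblast when it had at least 1000 unique molecular identifiers (UMIs, each standing for 1 captured RNA molecule), 500 or more genes and a mitochondrial share of UMIs up to 10%, with at least 5 UMIs of Dcn, Col1a1 and Col3a1 together and none of Pecam1 or Ptprc. Each set's UMIs were divided by the cell's total and then by the set's mean over the fibroblasts of both libraries, and a cell with the Ccl19 set strictly highest became a member. The competing sets were Cxcl14, Smoc2, Dpep1 and Hsd11b1, then Cilp, Mfap4, Comp and Meox1, and then Cd248, Pi16, Ackr3 and Tmem100. This rule found 762 members among 3423 fibroblasts, out of 7442 cells that passed the quality limits and 10667 cells in all. AC8 hearts gave 405 members of 1521 fibroblasts, and WT hearts gave 357 of 1902. The other fibroblasts fell to the Cxcl14 Dpep1 set (401 AC8 and 692 WT cells), the Cilp Mfap4 set (349 and 367) and the Pi16 Cd248 set (349 and 452), while 17 and 34 cells had no strictly highest set.

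The study set untreated mice that overexpress AC8 (adenylyl cyclase 8, an enzyme that makes cyclic AMP), in cardiomyocytes by the series title, against their wild-type (WT) littermates. Both genotypes were on the C57/B6 strain, and neither age nor sex is stated in the labels. For each genotype, hearts of mice were pooled, leukocytes, mesenchymal cells and endothelial cells were sorted by CD45 and CD31, and the 3 sorted fractions went in equal numbers into 1 droplet library. Cardiomyocytes were not a sorted fraction. With 1 library per genotype there are no replicates, so every difference is given as values without a test.

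Fibroblasts make and remodel the matrix between heart muscle cells, and they also signal to immune cells. Ccl19 encodes a chemokine that draws T cells and dendritic cells through the receptor CCR7 and is best known from the reticular fibroblasts of lymph nodes. Srpx encodes a secreted protein with sushi repeats, Mmp3 encodes stromelysin, a protease that cuts proteoglycans and other matrix proteins, and Osr1 encodes a transcription factor of embryonic mesoderm that marks connective tissue progenitors.

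The members were sequenced to a median of 2635 UMIs per cell in AC8 and 2017 in WT, and to 1129681 and 772002 UMIs in total. Mitochondrially encoded genes took 1.62% of member UMIs in AC8 and 1.77% in WT, and ribosomal protein genes took 12.4% and 11.8%. Levels are in CPM, the summed UMIs of a gene per 1000000 UMIs of that class and library. Intervals are exact at 95% and cover counting error only, with UMIs treated as independent. Adcy8, which encodes AC8, had 1 UMI over all deposited AC8 cells and 0 in WT, so it cannot check the genotype labels of cells that are not cardiomyocytes.

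The 4 genes of the rule describe the members and are no finding, because they chose them. Ccl19 (chromosome 4, 42754525 to 42756577, minus strand, GRCm38) stood at 831 CPM (779 to 886) in AC8 members and 784 CPM (722 to 849) in WT members, against 109 and 89.2 CPM in the other fibroblasts. Srpx (chromosome X, 10037977 to 10117709, minus strand) stood at 436 CPM in AC8 members and 373 CPM in WT members, against 110.4 and 73.2 CPM. Osr1 (chromosome 12, 9570116 to 9581500, plus strand) had nearly the same level in both, 419 and 422 CPM, against 116 and 90.3 CPM in the other fibroblasts. Mmp3 (chromosome 9, 7445822 to 7455975, plus strand) stood at 546 CPM (504 to 591) in AC8 members and 786 CPM (725 to 851) in WT members. The other fibroblasts had the higher level in AC8, at 43.6 and 27.9 CPM. Mmp3 helped choose the members, so no genotype difference is read from these values. Its counts were concentrated, with a UMI in 110 of the AC8 members and 93 of the WT members. Among the other sets, the Cilp Mfap4 cells came closest for Ccl19, at 164 CPM in AC8 and 166 CPM in WT. Reads of Ccl19 could be shared with near copies in the genome, which was not checked by sequence, so its count of 2565 UMIs over all cells is uncertain.

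**Figure D1:**
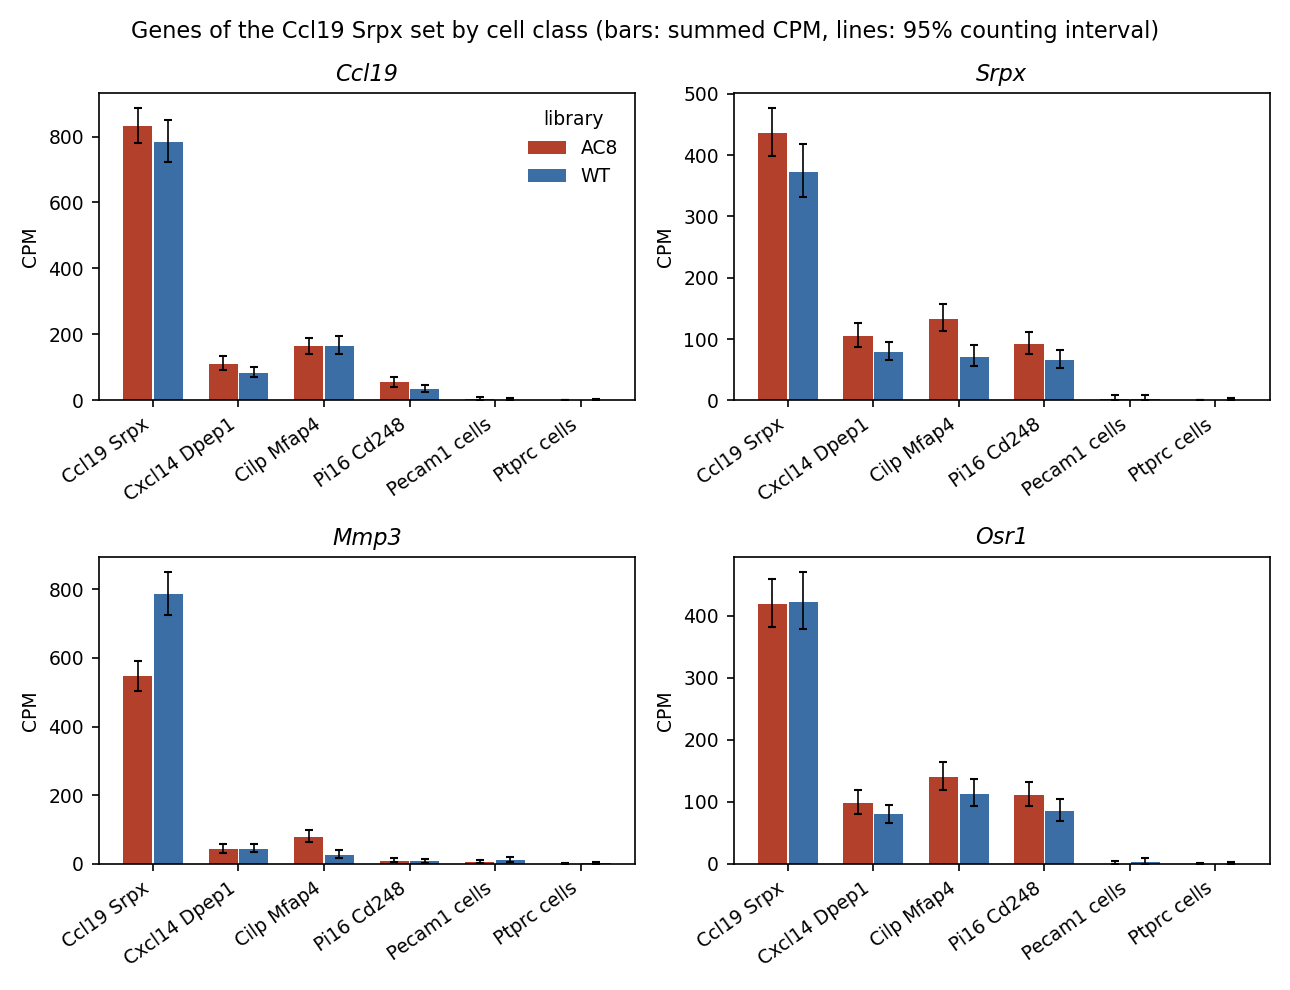
CPM of the 4 genes that chose the members (bars, with 95% counting intervals as lines) in 6 cell classes, AC8 left of WT. Members stand far above the other fibroblasts by construction, with Ccl19 at 831 CPM in AC8 and 784 CPM in WT, while endothelial (Pecam1) and leukocyte (Ptprc) cells lie near 0.

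Detection was compared after thinning each cell to 1000 UMIs, because depth differed between the libraries. A thinned Ccl19 UMI was found in 47.7% (42.7 to 52.6) of AC8 members and 41.7% (36.6 to 47.0) of WT members, and before thinning in 69.9% and 63.9%. Endothelial cells, which should lack it, had a thinned Ccl19 UMI in 0.206% of AC8 cells and in 0 of 487 WT cells, at median depths of 1453 and 1385 UMIs. Mmp3 was the sparsest of the genes after thinning, with a UMI in 20.2% (16.4 to 24.5) of AC8 members and 22.4% (18.2 to 27.1) of WT members.

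Membership rested on few molecules in many cells. A member held a median of 4 UMIs of the Ccl19 set in AC8 (from 1 to 46) and 3 in WT (from 1 to 41). All 4 genes were detected together in 14 AC8 members and 1 WT member, while 119 and 156 members showed a single gene of the set. The set was at least 2 times the next one in 254 AC8 and 210 WT members. At the edge of the rule, the 20 members just inside had the set at 1.01 to 1.02 times the next one, and the 20 cells just outside had it at 0.952 to 0.993 times.

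The label was checked against markers of other cells. Dcn, Col1a1, Col3a1, Pdgfra, Lum and Tcf21 were all detected, which makes the members fibroblasts by expression, though the first 3 were required. Of the fibroblastic reticular markers, Ccl21a and Madcam1 were at 0 in AC8 and Cxcl13 and Madcam1 at 0 in WT, where Ccl21a had 2 UMIs, so the lymph node programme beyond Ccl19 and Pdpn was at or near 0. Ccr7, the Ccl19 receptor, had 8 UMIs in AC8 members and 1 in WT members. Mesothelial and epicardial markers (Msln, Upk3b, Wt1 and Krt19) had 1 UMI in AC8 and 0 in WT, and natural killer markers had 0 in both. Macrophage markers (5 of 5 detected) summed to 346 CPM in AC8 members against 54.4 CPM in WT members, with 70.6% of the AC8 UMIs in 5 cells. They summed to 262 and 58.6 CPM in Cilp Mfap4 cells, 175 and 85.7 CPM in Cxcl14 Dpep1 cells and 84.8 and 106 CPM in Pi16 Cd248 cells. Mural markers (6 of 6) summed to 226 and 158 CPM in members. The cell barcodes are given as running numbers, so barcodes shared between the libraries could not be counted.

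Members made up a larger share of the AC8 fibroblasts. They were 26.6% (24.4 to 28.9) of AC8 fibroblasts and 18.8% (17.0 to 20.6) of WT fibroblasts, a difference of 7.86 percentage points (4.99 to 10.7). Cxcl14 Dpep1 cells went the other way, at 26.4% (24.2 to 28.7) in AC8 and 36.4% (34.2 to 38.6) in WT. The 2 shares are not independent, since a cell belongs to the set that is highest. When each set was divided by its mean within its own library instead, the difference in the members' share was 3.56 points, from 366 AC8 and 390 WT members. Whether mice within a pool differ in this share cannot be seen with 1 library each.

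Beyond the genes that chose them, Igfbp3 and Apoe had the highest summed levels in members relative to the other fibroblasts in both libraries, Igfbp3 through a minority of the members. The comparison was made within each library against the other 3 sets pooled, without the 16 set genes and 5 gate genes, and describes cells that were chosen from these same counts. Of 1520 genes with at least 30 summed UMIs and 100 CPM, 6 were at least 2-fold higher in both libraries (0.395% of the genes) and 10 were at least 2-fold lower (0.658%). Igfbp3 (chromosome 11, 7206086 to 7213923, minus strand), which encodes a carrier of insulin-like growth factors, stood at 291 CPM in AC8 members and 535 CPM in WT members, against 41.2 and 52.4 CPM in the other fibroblasts. Its ratio over other fibroblasts was 7.07 (5.77 to 8.71) in AC8 and 10.2 (8.57 to 12.2) in WT. An Igfbp3 UMI was found in 16.3% of AC8 members and 21.3% of WT members, and after thinning in 10.9% (8.01 to 14.3) and 15.7% (12.1 to 19.9), against thinned shares of 0.127% and 0.186% in leukocytes at median depths of 2909.5 and 2085 UMIs. Of its 329 UMIs in AC8 members 282 lay in 1 cluster of cells described with the clustering, as did 319 of 413 in WT. Members outside both main clusters had 38.0 CPM (22.5 to 60.1) in AC8 and 182 CPM (136 to 238) in WT, so in AC8 their level overlapped that of the other fibroblasts. Apoe, the lipid carrier apolipoprotein E, stood at 6321 and 6522 CPM in members, against 2076 and 2059 CPM, which gave ratios of 3.04 and 3.17 with narrow intervals. The AC8 and WT libraries lay close together for Apoe and apart for Igfbp3.

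The other genes past 2-fold were Tmem176b (ratio 2.49 in AC8 and 4.18 in WT), which encodes a membrane protein, Cyp1b1 (2.45 and 2.47), a cytochrome that handles steroids and retinoids, Fgl2 (2.31 and 2.57), a fibrinogen-like secreted protein, and Cntfr (2.35 and 2.46), the receptor subunit for ciliary neurotrophic factor. Single sets could lie nearer than the pool. Cxcl14 Dpep1 cells had Cyp1b1 at 93.9 CPM in AC8 and 70.2 CPM in WT, against 135 and 119 CPM in members. They had Tmem176b at 156 and 43.2 CPM, against 223 and 146 CPM in members. Cilp Mfap4 cells had Fgl2 at 151 and 259 CPM, against 274 and 372 CPM in members. Next in order came the cytoskeletal adaptor Pdlim3, the prohormone-processing enzyme Cpe, the metallothioneins Mt1 and Mt2, the Wnt antagonist Sfrp2, the matrix protein Fbln1, the growth factor Igf1 and the chemokine Cxcl12. Some of these were shared with the Cilp Mfap4 cells. Pdlim3 stood at 308 CPM in AC8 members and 211 CPM in WT members, against 299 and 194 CPM in Cilp Mfap4 cells. Cpe stood at 142 and 180.1 CPM in members, against 135 and 176 CPM in those cells, and Sfrp2 at 212 and 181 CPM, against 237 and 95.9 CPM. Igf1 stood at 549 CPM in AC8 members and 482 CPM in WT members, against 232 and 289 CPM in the other fibroblasts pooled and 317 and 404 CPM in Cilp Mfap4 cells. Cxcl12 stood at 184 and 170 CPM in members, against 106 and 99.9 CPM in the other fibroblasts pooled.

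Among the 10 genes lower in members were several of the matrix. Sema3c, a secreted guidance cue, stood at 23.9 CPM in AC8 members and 41.5 CPM in WT members, against 106 and 185 CPM in the other fibroblasts, a ratio of 0.23 (0.15 to 0.33) in AC8 and 0.22 (0.15 to 0.32) in WT. The proteoglycan Aspn (ratio 0.32 in AC8 and 0.37 in WT), the collagen crosslinker Loxl2 (0.35 and 0.34), the collagen chain Col8a1 (0.40 and 0.32) and the microfibril protein Mfap5 (0.39 and 0.49) followed, with Fibin, Pla1a, Fndc1, Hmcn2 and the surface antigen Ly6c1 completing the 10. Where the sets were compared singly, Sema3c, Mfap5 and Ly6c1 were highest in Pi16 Cd248 cells, and the Cxcl14 Dpep1 cells had levels near those of members. For Sema3c these were 16.3 CPM in AC8 and 38.5 CPM in WT.

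**Figure D2:**
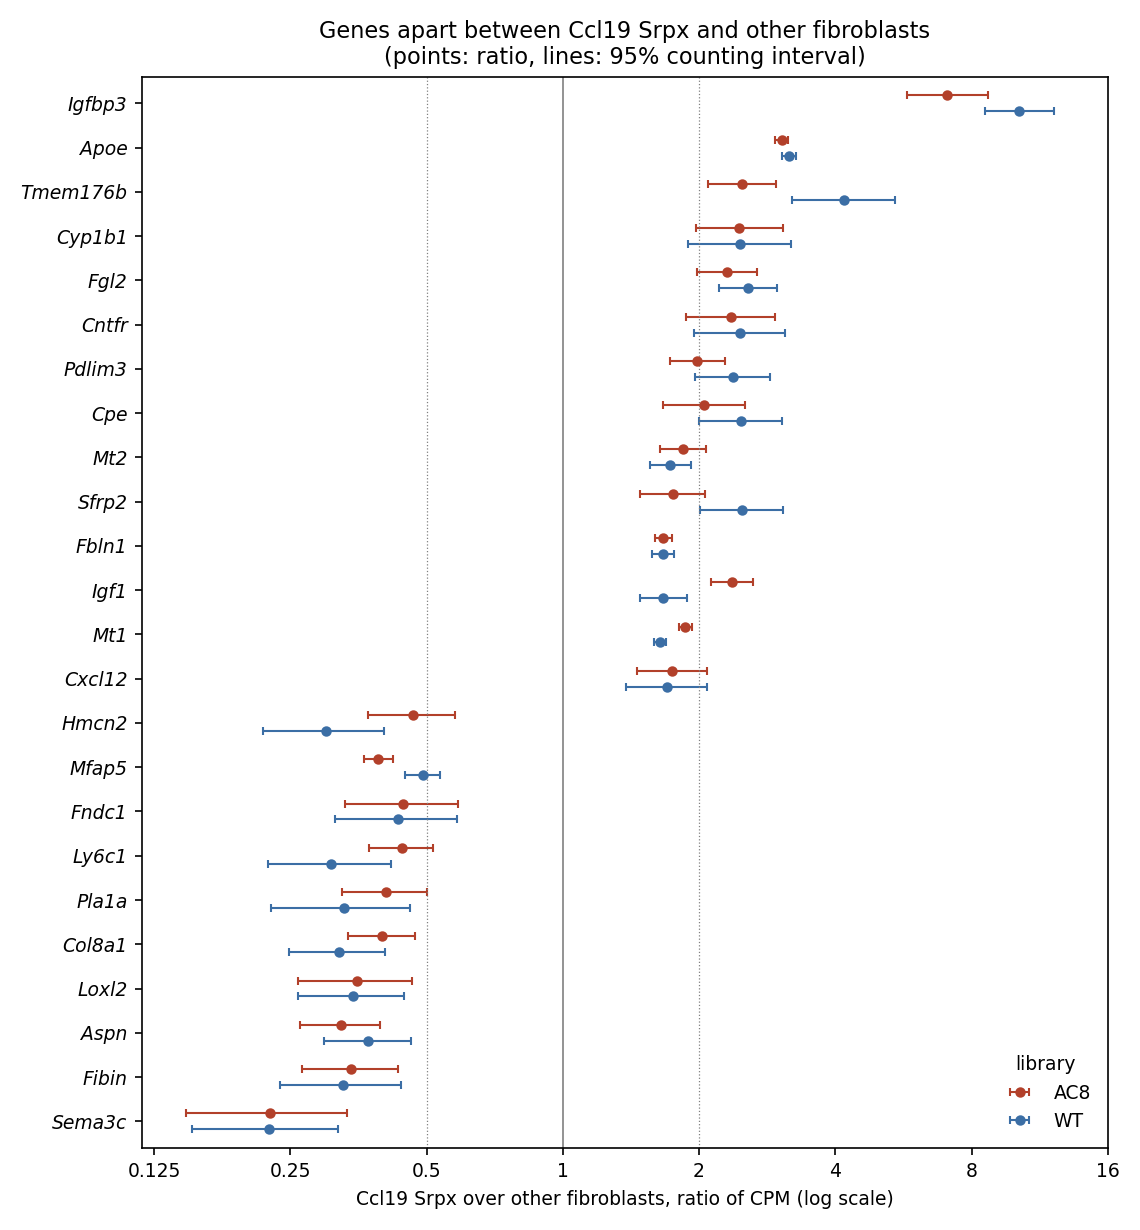
Ratio of CPM in Ccl19 Srpx fibroblasts over the other fibroblasts of the same library (log axis, points with 95% counting intervals) for genes highest and lowest by rule, AC8 above WT for each gene. Igfbp3 lies farthest to the right, at 7.07 in AC8 and 10.2 in WT, and Sema3c farthest to the left, at 0.23 and 0.22.

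Gene lists were then read by their counts, beside all genes, of which 41.6% were higher in members in AC8 and 38.8% in WT. The median log2 ratio over all genes was -0.047 in AC8 and -0.049 in WT. These shares are of each library alone, while the list counts need the same direction in both libraries. The share of all genes with the same direction in both is not given. NF-kB targets and regulators stood higher in members in both libraries for 12 of 13 genes past the filter, with a median log2 ratio of 0.48 in AC8 and 0.50 in WT, although no gene reached 2-fold. Vcam1, an adhesion molecule for leukocytes, was 1.57 times as high in AC8 and 1.83 times in WT, Icam1 1.45 and 1.58 times, the neutrophil chemokine Cxcl1 1.63 and 1.42 times, and the NF-kB inhibitor Nfkbia 1.47 and 1.37 times. Immediate-early and dissociation stress genes were higher in members in both libraries for 19 of 32 genes and lower for 4, with medians of 0.15 and 0.13. Several NF-kB genes answer to tissue dissociation as well, and its part in this pattern was not tested.

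Matrix lists stood lower in members than in the other 3 sets pooled. The pool holds the Cilp Mfap4 cells, which the rule chose by matrix genes among others, so this direction can be partly built in. Collagen chains were lower in members in both libraries for 10 of 12 genes (median log2 ratio -0.25 in AC8 and -0.29 in WT), with Col5a3 at 0.60 and 0.54 times and Col4a1 at 0.82 and 0.70 times. Basement membrane genes were lower for 10 of 11 (medians -0.35 and -0.42), among them the perlecan gene Hspg2 (0.68 and 0.64 times) and the laminin chain Lamc1 (0.69 and 0.70 times), and the exception was Fbln1. Genes of activated fibroblasts were lower for 9 of 11 (medians -0.41 and -0.45). Single sets could lie on either side of members. Postn stood at 174 CPM in AC8 members and 161 CPM in WT members. It had 1046 and 490 CPM in Cilp Mfap4 cells, 226 and 195 CPM in Pi16 Cd248 cells and 89.1 and 18.2 CPM in Cxcl14 Dpep1 cells. Elastic fibre genes were mixed, with 15 of 29 lower and 6 higher. Within them Mgp, an inhibitor of calcification, stood at 6878 CPM in AC8 members and 8164 CPM in WT members, against 4446 and 4083 CPM, while the microfibril gene Fbn1 stood at 225 and 374 CPM, against 470.2 and 731 CPM.

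Among complement genes, 6 of 7 past the filter were higher in members in both libraries. C4b, a component of the classical pathway whose near copy C4a makes its count uncertain, was under the filter in WT and is given as a value. It stood at 225 CPM (198 to 254) in AC8 members and 89.4 CPM (69.5 to 113) in WT members, against 59.5 and 24.3 CPM, so that both the class and the genotype separated its levels. Insulin-like growth factor genes were split, with Igfbp3, Igf1, Igfbp4 and Igfbp5 higher in members in both libraries, and Igfbp6 lower, at 319 and 332 CPM in members against 866 and 620.5 CPM. Of the transcription factors, 9 of 14 were higher in both libraries, among them the heart field factors Tbx20 (1.35 and 1.66 times) and Gata6 (1.33 and 1.46 times).

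Clustering without the 21 rule genes split the members over separate groups of cells. Of 10 clusters, the 2 with the most members held 60.4% (56.8 to 63.9) of all members, against 18.3% of the other fibroblasts. They were picked by their members, so part of this excess is built in. The first, called the Igfbp3 cluster here after its leading gene, also led with Cytl1, Wif1, Cox4i2, Smad6 and Pdlim3, and members were 57.1% of its AC8 cells and 54.5% of its WT cells. The second, called the Osr1 cluster, led with Osr1, Inmt, Ccl19, C7, Igf1 and Gdf10, and members were 47.7% of its AC8 cells and 37.6% of its WT cells. The remaining 165 AC8 and 137 WT members were spread over the other clusters. No genotype comparison of cluster sizes is drawn, since leading genes of these clusters themselves stood apart between the libraries.

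The set that defines the members was divided between these clusters. In members of the Igfbp3 cluster, Osr1 stood at 119 CPM (84.8 to 162) in AC8 and 82.7 CPM (50.5 to 128) in WT, while in members of the Osr1 cluster it stood at 837 CPM (739.8 to 944) and 767 CPM (661 to 885). Mmp3 was present in both, at 837 and 872 CPM in the Igfbp3 cluster and 420.2 and 693 CPM in the Osr1 cluster, and so was Srpx. Ccl19 was high in both, at 848 and 831 CPM in the Igfbp3 cluster, and at 1304 CPM (1182 to 1436) in AC8 and 857 CPM (745 to 982) in WT in the Osr1 cluster. Igfbp3 itself stood at 837 and 1318 CPM in the Igfbp3 cluster and at 90.9 and 172 CPM in the Osr1 cluster. Inmt, a methyltransferase, had 1 UMI in AC8 and 10 UMIs in WT in the Igfbp3 cluster, against 157 and 357 CPM in the Osr1 cluster. The label thus joins an Osr1-low, Igfbp3-high group of cells and an Osr1-high, Igf1-high group.

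**Figure D3:**
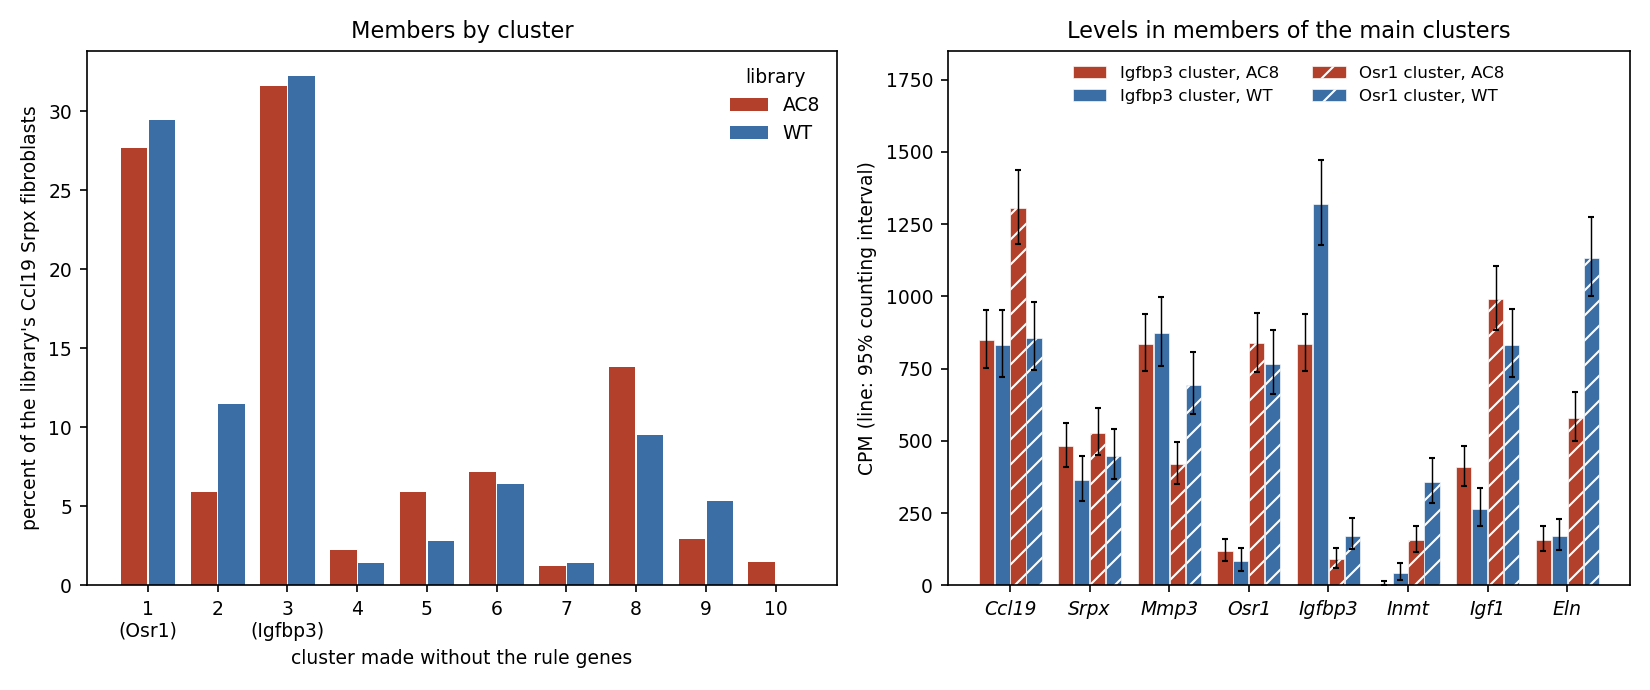
Left, percent of each library's Ccl19 Srpx fibroblasts in each of 10 clusters made without the rule genes, AC8 left of WT. Right, CPM with 95% counting intervals of 8 genes in members of the Igfbp3 cluster (plain bars) and the Osr1 cluster (hatched bars), where Osr1, Inmt, Igf1 and Eln are high in the Osr1 cluster and Igfbp3 is high in the Igfbp3 cluster.

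The share of members in these clusters was followed over the number of set UMIs a member held, which Osr1 and Ccl19, leading genes of one cluster, partly fix. With 8 or more UMIs of the set, 76.6% (67.5 to 84.3) of AC8 members and 70.3% (57.6 to 81.1) of WT members lay in them. With 2 or 3 UMIs the shares were 46.7% (37.6 to 56.0) and 52.6% (43.9 to 61.1), and with a single UMI 48.7% (32.4 to 65.2) and 67.3% (52.5 to 80.1), so the WT shares followed no order. Apoe stood above the other fibroblasts at each amount, from 5310 to 7210 CPM in AC8 and from 6356 to 6921 CPM in WT. Members with a single UMI of the set had Apoe at 5416 CPM in AC8 and 6579 CPM in WT, at median depths of 1854 and 1739 UMIs.

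Between the genotypes, Cd74 and H2-Eb1 were among the genes with the highest AC8 over WT ratios in members, and Ptx3 and Thbs1 among those with the lowest. Of 1751 genes past the filter, 79 were at least 1.5-fold higher in AC8 members (4.51%) and 157 were at least 1.5-fold lower (8.97%). In the other fibroblasts the counts were 38 of 1781 (2.13%) and 104 (5.84%), from the same libraries with more UMIs per class. The median over all genes was 0.01 on the log2 scale in members and 0.02 in the other fibroblasts. Of these genes, 51.1% were higher in AC8 in members and 52.0% in the other fibroblasts.

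Cd74, the invariant chain of MHC class II, stood at 723 CPM in AC8 members and 108 CPM in WT members, a ratio of 6.73 (5.36 to 8.54). The class II genes H2-Eb1, H2-Ab1 and H2-Aa, the macrophage genes C1qb and Lyz2 and the chemokine Cxcl2 had ratios of 4.54 to 8.36. These counts lay in few cells. Taking Cd74, H2-Aa, H2-Ab1 and H2-Eb1 together, 5 cells held 80.4% of the AC8 members' UMIs, and 23.5% of AC8 members and 23.5% of WT members had any. In a split chosen after these values were seen, at least 5 UMIs of macrophage or class II genes were found in 12 AC8 members and 1 WT member. Without those cells Cd74 stood at 52.9 CPM in AC8 and 79.3 CPM in WT, a ratio of 0.67 (0.46 to 0.97), and the log2 ratios of H2-Eb1, H2-Ab1, H2-Aa and C1qb were -0.25, -0.10, -0.43 and -0.02. Cxcl2 then stood at 28.8 and 22.1 CPM, with a counting interval that includes 1, and Lyz2 kept a ratio of 2.32 (1.46 to 3.78).

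Nmt1, Timp1 and Aldh1a2 kept ratios above 3 without those cells. Nmt1, which encodes an enzyme that attaches myristate to proteins, stood at 146 CPM (125 to 170) in AC8 members and 46.6 CPM (32.7 to 64.6) in WT members, with a UMI in 138 and 32 cells. Timp1, an inhibitor of matrix metalloproteinases, stood at 418 and 123 CPM, but 42.6% of its AC8 UMIs were in 1 cell. Without the highest cell of each library it stood at 244 and 114 CPM, a ratio of 2.13 (1.67 to 2.74). Aldh1a2, the enzyme that makes retinoic acid, stood at 127 and 41.5 CPM, and at 94.4 and 36.4 CPM without its highest cell. Ccnb1ip1 and Ly6c1 completed the 12 highest. The other fibroblasts were also higher in AC8 for each of these genes. Their ratios were 1.93 for Nmt1, 2.62 for Timp1, 1.33 for Aldh1a2, 2.59 for Ccnb1ip1 and 1.88 for Ly6c1. Ly6c1 has near copies, so its count is uncertain.

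Thbs1, the matricellular protein thrombospondin 1, stood at 91.2 CPM (74.4 to 111) in AC8 members and 358 CPM (317 to 402) in WT members, a ratio of 0.26. The other fibroblasts showed 159 and 485 CPM for it, a ratio of 0.33. Ptx3, a soluble pattern recognition protein, stood at 21.2 CPM in AC8 members and 110.1 CPM in WT members, a ratio of 0.19 (0.12 to 0.31), against 27.1 and 49.96 CPM and a ratio of 0.54 (0.42 to 0.70) in the other fibroblasts. The proteoglycan Ogn had a UMI in 224 AC8 and 254 WT members and stood at 519.6 CPM in AC8 members and 1203 CPM in WT members. Ptgs2, the inducible prostaglandin synthase, stood at 116 and 272 CPM. Cytl1, Csrnp1, Kif1b, Ranbp2, Nr4a3, Akap12, Ccl7 and Inmt made up the rest of the 12 lowest, with ratios of 0.36 to 0.45. Some of the lowest genes lay in few cells. Ptx3 had a UMI in 17 AC8 and 32 WT members, with 25.9% of its WT UMIs in 1 cell. Cytl1 had a UMI in 18 AC8 and 19 WT members, and its highest cell held 24.2% and 17.8% of its UMIs. Ccl7 had a UMI in 28 and 23 members.

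**Figure D4:**
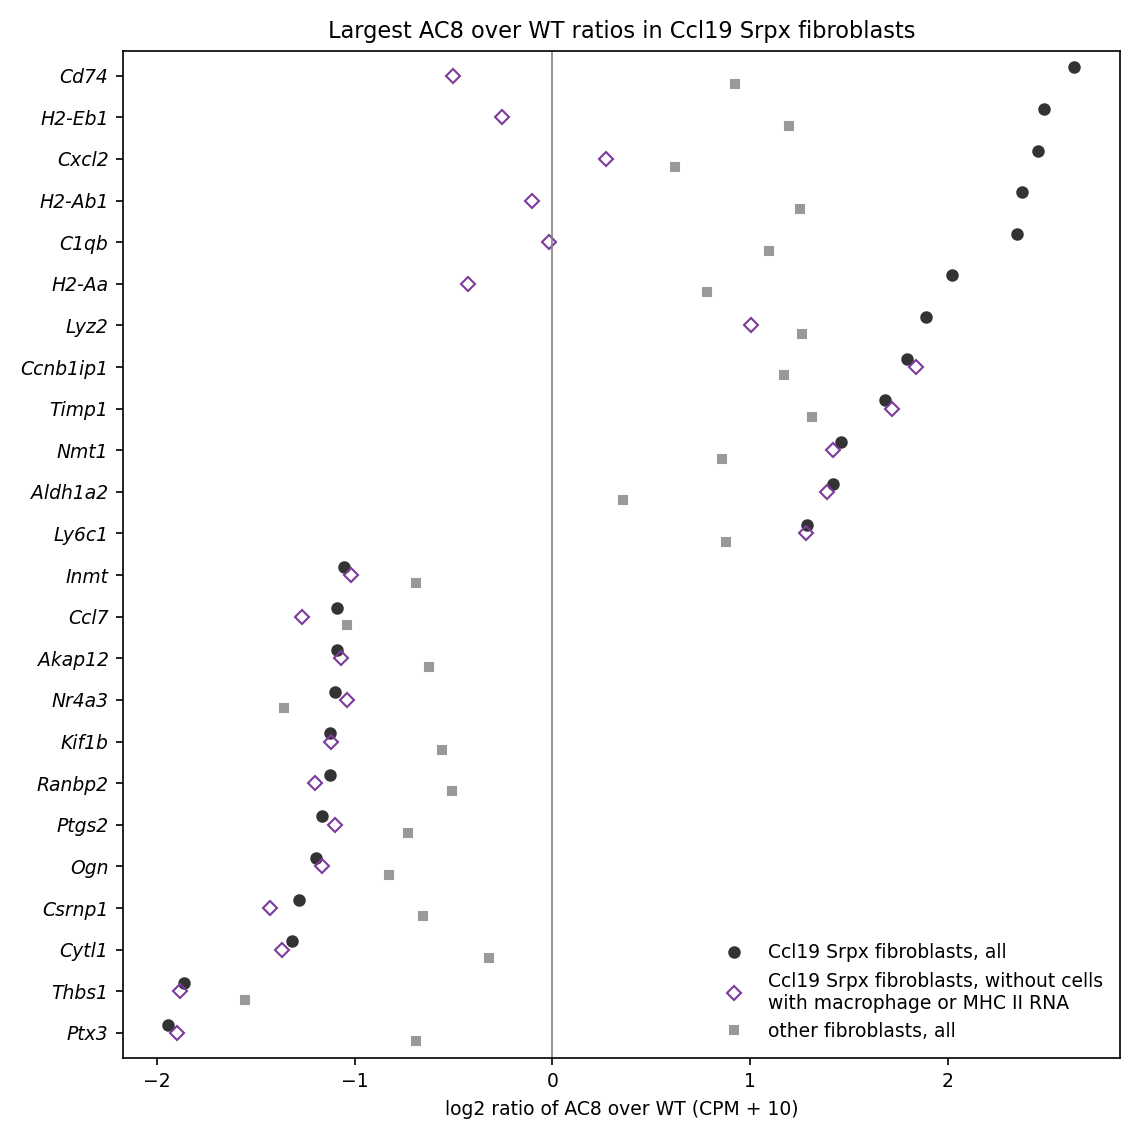
Log2 ratio of AC8 over WT (CPM with 10 added) for the 12 highest and 12 lowest genes in Ccl19 Srpx fibroblasts, for all members (filled circles), for members without cells rich in macrophage or MHC class II RNA (open diamonds) and for the other fibroblasts (grey squares). Cd74 moves to -0.50 without those cells, while Timp1, Nmt1, Thbs1 and Ptx3 hardly move.

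In the list of type I interferon response genes, 9 of 10 past the filter were higher in AC8 members, 5 of them at least 1.5-fold. Of all genes, 51.1% were higher and 4.51% were at least 1.5-fold higher. The list's median log2 ratio was 0.49 in members and 0.55 in the other fibroblasts over the same genes. Ifi27l2a stood at 2426 CPM in AC8 members and 1088 CPM in WT members, a ratio of 2.23 (2.06 to 2.41), and Ly6a, Ly6e and Bst2 at ratios of 2.03, 1.92 and 1.74. Isg15, a ubiquitin-like protein induced by interferon, stood at 213 CPM (187 to 242) in AC8 members and 111 CPM (89.1 to 138) in WT members. The exception was the transcription factor Irf1, at 160 and 219 CPM. The RefSeq promoter of Isg15 (GRCm38.p6, chr4:156200819-156201068, minus strand, 250 bases before the start) is shown because it holds the interferon-stimulated response element, searched as GAAANNGAAA on both strands. Its 3 overlapping matches are in capitals.
Isg15: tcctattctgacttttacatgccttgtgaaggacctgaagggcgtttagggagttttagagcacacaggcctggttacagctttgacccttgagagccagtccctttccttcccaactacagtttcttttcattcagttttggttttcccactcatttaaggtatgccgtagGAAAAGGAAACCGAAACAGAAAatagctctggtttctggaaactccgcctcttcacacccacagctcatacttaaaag
This element was found in the same window of 3.04% of 27025 promoters and in 14 of 30 promoters of the interferon list that could be matched, Isg15, Ifitm2 and Bst2 among the 6 past the filter. The window of Ccl19 held 1 match. Among the 4 set genes 3 could be matched to a promoter.

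NF-kB targets and regulators went mostly the other way, with 11 of 15 genes lower in AC8 members. At least 1.5-fold, 6 were lower and 1 was higher, beside 8.97% and 4.51% of all genes. The list's median was -0.40 in members and -0.35 in the other fibroblasts over the same genes. Cxcl1 stood at 724 CPM (675 to 775) in AC8 members and 1273 CPM (1195 to 1355) in WT members. Ptgs2, Ccl7, Ccl2, Nfkb1 and Tnfaip6, a hyaluronan-binding protein of inflammation, had ratios of 0.43 to 0.60. Nfkbia stood at 778 and 732 CPM, and Rela, the p65 subunit of NF-kB, at 78.8 and 88.1 CPM with overlapping intervals. The exception was Cxcl2, whose AC8 counts lay largely in the cells rich in macrophage RNA. Cxcl1 and Cxcl2 are neighbours on chromosome 5, and their RefSeq promoters (GRCm38.p6, chr5:90890995-90891244 and chr5:90903649-90903898, both plus strand) are shown because both hold an NF-kB element, in capitals, read as a match on each strand.
Cxcl1: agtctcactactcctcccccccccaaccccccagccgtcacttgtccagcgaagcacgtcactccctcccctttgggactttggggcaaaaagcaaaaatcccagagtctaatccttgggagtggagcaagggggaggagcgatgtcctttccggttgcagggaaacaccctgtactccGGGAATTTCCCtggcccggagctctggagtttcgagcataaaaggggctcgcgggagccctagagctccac
Cxcl2: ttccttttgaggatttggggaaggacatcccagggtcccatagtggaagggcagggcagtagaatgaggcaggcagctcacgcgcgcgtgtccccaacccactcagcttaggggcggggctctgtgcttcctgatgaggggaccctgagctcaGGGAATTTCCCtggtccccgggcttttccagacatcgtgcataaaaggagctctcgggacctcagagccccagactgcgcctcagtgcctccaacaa
An NF-kB match stood in 3.75% of all promoters, in 14 of 28 matched promoters of the list and in 6 of the 10 past the filter. The cyclic AMP response element, searched as TGACGTCA, stood in 1.62% of all promoters, in 0 of 28 matched promoters of the cyclic AMP list and in 2 of 32 of the dissociation stress list (Btg2 and Dusp1). The matches describe these letters and say nothing of binding.

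Chemokines as a list had 4 of 7 genes at least 1.5-fold lower in AC8 members (Ccl7, Cxcl1, Ccl2 and Ccl11) and 2 at least 1.5-fold higher (Cxcl2 and Cxcl16), a list that shares 4 genes with the NF-kB list. Among all genes these shares were 8.97% lower and 4.51% higher. Ccl2, which draws monocytes, stood at 163 CPM in AC8 members and 276 CPM in WT members, while the other fibroblasts had 192 and 208 CPM. Cxcl12 showed 184 and 170 CPM, with overlapping intervals. The lymphocyte survival and homing factors had 1 of 5 genes at least 1.5-fold higher, Cxcl16, at 129 and 80.3 CPM.

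The matrix and protease inhibitor lists were read one by one. Of all genes, 51.1% were higher in AC8 members, 4.51% were at least 1.5-fold higher and 8.97% at least 1.5-fold lower. Collagen chains were lower for 13 of 14 genes, 4 of them at least 1.5-fold (Col6a6, Col4a5, Col14a1 and Col15a1), with a median of -0.33 in members and -0.32 in the other fibroblasts over the same genes. Col15a1 stood at 662 CPM in AC8 members and 999 CPM in WT members. Basement membrane genes had 1 of 11 at least 1.5-fold lower, a share near that of all genes, which was the nidogen Nid1, at 449 CPM (411 to 490) in AC8 members and 918 CPM (852 to 989) in WT members. Small proteoglycans had 2 of 11 at least 1.5-fold lower, Ogn and Ecm2, and 1 at least 1.5-fold higher, Bgn, at 3929 and 2615 CPM. Elastic fibre and matricellular genes were 18 lower and 9 higher of 27, with 4 at least 1.5-fold lower (Thbs1, Thbs2, Eln and Fbn1) and a median of -0.10. Of the protease inhibitors, 8 of 11 were higher, with a median of 0.36 in members and 0.38 in the other fibroblasts over the same genes. At least 1.5-fold higher were 2 of the 11, Timp1 and Serpina3n. Timp3, which stays bound to matrix, was lower, at 954 CPM (898 to 1013) in AC8 members and 1868 CPM (1773 to 1967) in WT members.

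Immediate-early and dissociation stress genes were lower in AC8 members for 29 of 35 genes, 9 of them at least 1.5-fold, and the same 35 genes split 29 lower and 6 higher in the other fibroblasts. Of all genes, 51.1% were higher in AC8 members and 8.97% were at least 1.5-fold lower. Fosb stood at 993 CPM in AC8 members and 1719 CPM in WT members, Egr1 at 3512 and 5351 CPM, and the heat shock gene Hsph1 at 63.7 and 137 CPM. This list moved with the NF-kB genes, and its part in their lower levels was not tested. Of the cyclic AMP machinery, 3 of 7 genes were at least 1.5-fold lower, the phosphodiesterase Pde3a (54.9 and 118 CPM), the kinase anchor Akap12 (105 and 236 CPM) and the nuclear receptor Nr4a3 (46.0 and 110.1 CPM), while Gnas, the stimulatory G protein, stood at 1337 and 1317 CPM. Antioxidant genes were higher for 11 of 16, none of them 1.5-fold, with Prdx1 at 738 and 523 CPM, and 2 were at least 1.5-fold lower, Gstm1 (631 and 1045 CPM) and Mt2 (424 and 654 CPM). MHC class I genes had none of 13 at 1.5-fold. No proliferation gene passed the filter.

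**Figure D5:**
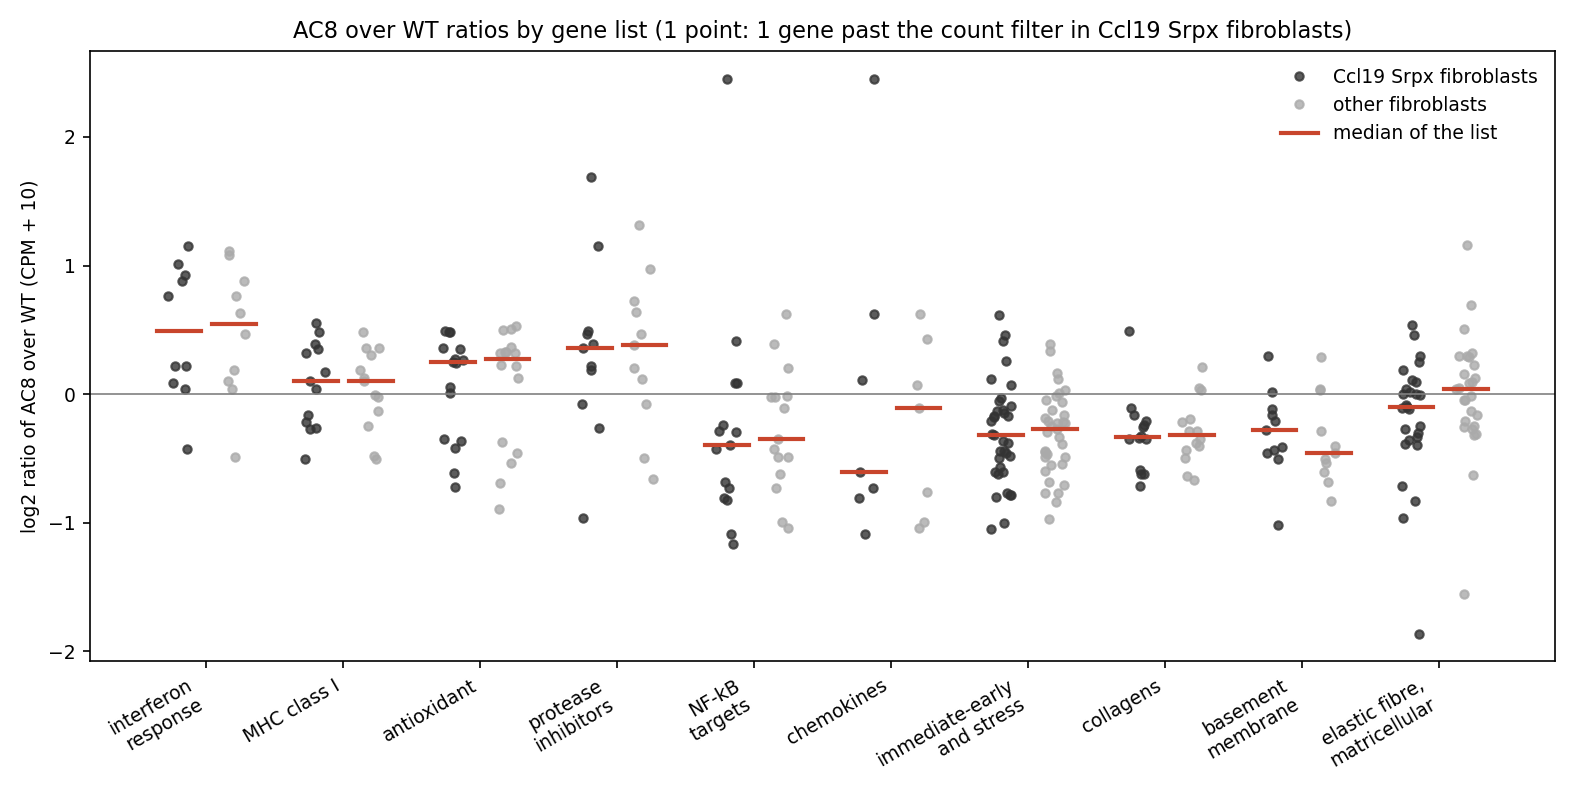
Log2 ratio of AC8 over WT (CPM with 10 added) for each gene past the count filter in 10 gene lists, Ccl19 Srpx fibroblasts (black) left of other fibroblasts (grey), with the list's median as a red line. The medians lie close together for interferon genes, 0.49 in members and 0.55 in the others, and are farthest apart for chemokines, -0.60 and -0.11.

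Genes whose genotype ratio set members apart from the other fibroblasts pooled were few. Of 1637 genes, 3 had a ratio at least 2-fold higher in members (0.183%), which were Cxcl2, Cd74 and H2-Eb1, and 3 at least 2-fold lower (0.183%), which were Dkk3, Postn and Eln. Without the cells rich in macrophage or class II RNA, 2 of the genes tested differed that far in either direction. With all cells kept, Cd74 stood at 505 CPM in AC8 and 167 CPM in WT in Pi16 Cd248 cells. In Cilp Mfap4 cells it stood at 403 and 113 CPM, and in Cxcl14 Dpep1 cells at 274 and 294 CPM. H2-Eb1 stood at 170 and 31.6 CPM, 102 and 28.8 CPM, and 49.8 and 58.7 CPM in these sets. Cxcl2 was higher in AC8 in each of them. Higher levels of these genes in AC8 were thus not particular to members. Dkk3, a secreted Dickkopf family protein, stood at 110 CPM (91.3 to 131) in AC8 members and 179 CPM (150.2 to 211) in WT members, a ratio of 0.61 (0.48 to 0.79). In the other fibroblasts it stood at 130.2 and 76.2 CPM, a ratio of 1.71 (1.47 to 1.996). Its members' level came mainly from the Igfbp3 cluster, where it had 264 and 393 CPM, against 62.7 and 61.5 CPM in the Osr1 cluster.

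Postn, a matricellular protein of activated fibroblasts, stood at 174 CPM in AC8 members and 161 CPM in WT members, a ratio of 1.09 (0.86 to 1.37), and at 458 and 199 CPM in the other fibroblasts pooled, a ratio of 2.30 (2.10 to 2.52). Taken singly, Cilp Mfap4 cells had 1046 and 490 CPM and Cxcl14 Dpep1 cells 89.1 and 18.2 CPM. The libraries lay closer in Pi16 Cd248 cells, at 226 and 195 CPM, as they did in members. Eln, which encodes elastin, stood at 285 CPM (255 to 318) in AC8 members and 565 CPM (513 to 620.3) in WT members, and at 521 and 503 CPM in the other fibroblasts pooled. Taken singly, Cxcl14 Dpep1 cells (284 and 415 CPM) and Pi16 Cd248 cells (235 and 328 CPM) were also lower in AC8. Only Cilp Mfap4 cells were higher, at 1041 and 868 CPM, so a lower Eln level in AC8 was not particular to members. The growth regulator Myc and the spermidine synthase Srm pointed up in members without reaching 2-fold. Srm stood at 148 CPM in AC8 members and 66.1 CPM in WT members, against 128 and 111 CPM in the other fibroblasts. The glycoprotein Itih5 and the translation factor Eif4a2 pointed down in the same way.

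Members of the main clusters differed in which genes separated the genotypes, and these values are descriptions chosen after they were seen. In the Igfbp3 cluster Isg15 stood at 418 CPM (352 to 493) in AC8 and 90.9 CPM (57.0 to 138) in WT, and in the Osr1 cluster at 100.3 CPM (68.6 to 142) and 115 CPM (76.3 to 166). Serpina3n, an acute-phase inhibitor of proteases with close paralogs, stood at 359 and 66.1 CPM in the Igfbp3 cluster, a ratio of 5.43 (3.21 to 9.80), and at 257 and 217 CPM in the Osr1 cluster, a ratio of 1.18 (0.83 to 1.70). Ifi27l2a was higher in AC8 in both, by ratios of 1.70 and 2.50.

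Of the 12 lowest genes, 9 were lower in AC8 in both clusters, and the exceptions were Cytl1, Ptgs2 and Ccl7. Thbs1 had ratios of 0.31 in the Igfbp3 cluster and 0.21 in the Osr1 cluster, and Ogn 0.43 and 0.33. Some genes stood apart between the clusters. Cxcl1 stood at 1151 CPM in AC8 and 1265 CPM in WT in the Igfbp3 cluster, a ratio of 0.91 (0.78 to 1.06), and at 335 and 952 CPM in the Osr1 cluster, a ratio of 0.35 (0.28 to 0.45). Ptgs2 stood at 190 and 157 CPM in the Igfbp3 cluster and at 132 and 472 CPM in the Osr1 cluster. Eln stood at 157 and 169 CPM in the Igfbp3 cluster, and at 580.1 CPM (499 to 670) in AC8 and 1132 CPM (1002 to 1274) in WT in the Osr1 cluster, so its difference lay outside the Igfbp3 cluster. Cytl1, a secreted cytokine-like protein, stood at 214 and 740 CPM in the Igfbp3 cluster and at 9 and 0 UMIs in the Osr1 cluster. Over all members its UMIs lay in only 18 AC8 and 19 WT cells. No test of these differences between clusters was possible.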

How the data were processed

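Droplet single-cell RNA sequencing was done on 1 library of pooled hearts per genotype. The deposited values are whole-number counts of UMIs for each gene in each cell, which the authors obtained, per the labels' protocols, from Cell Ranger. The build named in the submitters' processing notes is mm10. No version of Cell Ranger was given in the sources used here. Both matrices list 22441 symbols. The AC8 and WT libraries hold 4867 and 5800 cells with 11076564 and 9664932 UMIs.

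Raw counts were summed per library and class and scaled to CPM. Log2 ratios added 10 CPM, while folds are plain ratios. A gene needed at least 30 summed UMIs and 100 CPM in the higher library. Intervals are exact Poisson, binomial or Clopper-Pearson at 95%. With 1 library per genotype no p-value was computed. Members, gene lists and tests were chosen with earlier results of these data known. Genes were named by rule: the 12 highest and 12 lowest AC8 over WT ratios in members, the 15 highest and 10 lowest by the smaller of both libraries' ratios over other fibroblasts, the 5 highest and 5 lowest differences of genotype ratios, and members of 25 gene lists. Mitochondrial, ribosomal, hemoglobin, sex-linked and receptor segment genes and unnamed models were left out. A gene that the rule names is not reported here. The MHC class II list was added after its values were seen.

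Clusters came from 2000 variable genes without the 21 rule genes, 20 principal components, 20 neighbours and the Leiden algorithm at resolution 1. Doublets were kept in the main values and scored against simulated ones, which marked 111 of 3723 AC8 and 111 of 3719 WT cells, 12 and 6 of them members. The ratio and interval code was tested on simulated data. Alternatives were other cell limits, doublet removal, thinning, other forms of the rule, each set gene left out, other scaling, pseudocount and filter, and removal of cells with RNA of other lineages. Gene positions came from GENCODE vM21 on GRCm38 by symbol, and promoters from RefSeq on GRCm38.p6. Figures were drawn with matplotlib 3.10.9, clusters made with igraph 0.11.9, leidenalg 0.10.2 and scikit-learn 1.9.0, and tables and intervals computed with scipy 1.17.1, numpy 2.4.6 and pandas 2.3.3 in Python 3.11.15.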

Additional observations from a re-analysis of the deposited data

Results flagged for a closer look

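Dkk3 was picked out because its AC8 over WT ratio pointed down in Ccl19 Srpx fibroblasts and up in the other fibroblasts pooled. Both counting intervals lay away from 1. The log2 ratio in members minus that in the other fibroblasts pooled was -1.36. The mix of sets in that pool differed between the libraries. The difference was not tested, since each genotype has 1 library.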

How the results depend on the processing

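No paired analysis was possible because each genotype has 1 library. Of 456 values of named genes under 19 settings, 350 kept a plain ratio inside the counting interval of the main one. A further 92 moved outside it and 14 reversed direction. A wide interval leaves room for a large move. The other pseudocount and the dropped filter leave plain ratios unchanged, so those settings could not move a value. Without cells rich in macrophage or MHC class II RNA (chosen after seeing the data, as are the cluster subsets, the Leiden resolutions and the 2-fold margin), the log2 AC8 over WT ratios reversed to -0.50 for Cd74, -0.25 for H2-Eb1, -0.10 for H2-Ab1, -0.0171 for C1qb and -0.43 for H2-Aa. In Osr1 cluster members they reversed to -0.999 for Cd74, -1.70 for H2-Eb1 and H2-Ab1, -0.26 for Cxcl2, -1.27 for H2-Aa and 1.93 for Cytl1, and in Igfbp3 cluster members to -0.28 for H2-Ab1, 0.26 for Ptgs2 and 2.47 for Ccl7. The difference in the members' share was 3.56 points with the set mean taken within each library. Without the count filter, 585 genes were higher and 896 lower in AC8 members, 15 were higher and 24 lower in members than in other fibroblasts, and 100 ratios differed. Thinning before summing gave 141 genes higher in AC8 members. Without Ccl19 in the set, 3 genes were higher and 5 lower in members, and with the set at least 2 times the next one, 12 and 21. The 6 genes whose genotype ratios differed became 2 when the rule followed thinning, with the set mean within each library, without Mmp3 or without cells of other-lineage RNA, and 3 without Ccl19, without Osr1 or with a mean over cells. The share of members in the 2 clusters with the most members was 73.9% at resolution 0.5 and 51.2% at 1.5. Those clusters held 27.8% and 15.1% of the other fibroblasts. The cause of these changes was not tested, beyond the fewer or more genes and cells that each setting keeps. Depth limits genes under 100 CPM.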
